A study of Mus musculus and Homo sapiens with 180 samples.

Results

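MOLM13 cells, a human acute myeloid leukaemia line that carries an MLL fusion, were compared after 96 h of the Menin inhibitor VTP50469 at 500 nM and after DMSO, the solvent in which the compound is given. The comparison holds 6 of the 180 samples of the series, 3 treated and 3 DMSO libraries of control cells, chosen by the group named in their labels. According to the study's methods, control cells carry Cas9 and a control guide RNA, and were kept as a mixed population rather than a clone. The general methods describe this guide as aimed at a genomic site without annotated function. For MOLM13 the study calls it non-silencing or non-targeting. Both groups share this background, and the labels give 96 h for both. RNA was measured by 3′ RNA-seq, which counts reads near the polyadenylated end of transcripts. The study calls the replicates of this experiment biological, and the labels do not say how they were kept apart.

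Menin is a scaffold protein that binds the amino-terminal part of MLL (KMT2A) and holds it, and fusion proteins made from it, on chromatin at their target genes. In leukaemias with such fusions the best known targets are the HOXA genes and their TALE partners MEIS1 and PBX3, which keep cells in a self-renewing progenitor state. Inhibitors that displace Menin from MLL are known to lower these genes and to let leukaemic blasts take on features of granulocytes and monocytes.

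MEIS1, which fell, and MPO, which rose, are shown by the 250 bases upstream of their outermost annotated start, as 1 gene from each direction of the response. The windows were read from GRCh38 with the GENCODE v44 annotation, 5′ to 3′ on the strand of the gene, with CpG dinucleotides in capitals. That of MEIS1 (chr2:66433202-66433451, plus strand) held 12 CpG and that of MPO (chr17:58280936-58281185, minus strand) 2. The letters are a description and say nothing of binding in these cells.
MEIS1: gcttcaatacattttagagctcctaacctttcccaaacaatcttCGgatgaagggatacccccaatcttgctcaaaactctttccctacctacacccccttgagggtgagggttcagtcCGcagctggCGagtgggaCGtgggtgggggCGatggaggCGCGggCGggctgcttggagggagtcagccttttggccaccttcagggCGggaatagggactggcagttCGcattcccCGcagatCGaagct
MPO: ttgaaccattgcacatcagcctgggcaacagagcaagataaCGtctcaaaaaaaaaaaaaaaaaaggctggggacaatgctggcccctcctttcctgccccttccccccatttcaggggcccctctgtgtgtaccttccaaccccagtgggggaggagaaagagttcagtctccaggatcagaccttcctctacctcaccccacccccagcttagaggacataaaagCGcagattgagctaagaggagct

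Sequencing depth differed strongly between the groups. The DMSO libraries held 40250935, 21732246 and 24807162 counts and the treated libraries 5926974, 1918125 and 7013144. The share of counts on mitochondrially encoded genes was 2.80% to 4.71% in DMSO and 8.72% to 28.2% after VTP50469, a difference of 15.2 percentage points that no library crossed (two-sided exact permutation test, p = 0.1, the smallest value that 3 against 3 libraries allow). Markers of a myeloid leukaemia line were present: MYB, a progenitor transcription factor, stood at 116 to 158 CPM in DMSO, the cytokine receptor FLT3 at 71.6 to 113 CPM and the surface antigen CD33 at 135 to 206 CPM. CPM is the usual count scaled to the library size, here after TMM scaling, which matches libraries on genes that most of them share. The labels give Mus musculus as the organism, whereas MOLM13 is a human line and the table carries human gene symbols.

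After 96 h, 3079 of the 12741 genes tested differed from DMSO (24.2%), with 1221 higher (9.58%) and 1858 lower (14.6%), by the quasi-likelihood test of edgeR at an adjusted p (Benjamini-Hochberg) under 0.05. Of these, 3037 differed by more than 1 on the log2 scale. The median gene stood at a log2 fold change of 0.03. The balance of rises and falls depended on scaling: with library sizes taken as they are, the median gene shifted to 0.57 and 2318 genes were higher against 820 lower, with DESeq2 2282 against 1806, and with the DMSO libraries thinned to the depth of the shallowest library 1428 against 1019. Fold changes below are relative to the TMM scale. The shares of 9.58% and 14.6% are the background for counts of calls in the gene lists below. Groups that did not overlap were common in some lists, at 23 of 32 replication and 14 of 22 Polycomb subunit genes. They were rarer among ribosomal protein genes, at 8 of 70. Separate groups thus describe a gene and are not a test, and their share over all genes is not given here. With the replicate number as a block, 5133 genes were called, among them 99.9% of the rises and 100% of the falls. Calls below come from the fit without this block unless the block is named.

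Fold changes moved with transcript length. With genes in 4 equal bins of canonical transcript length, in the bin with the shortest, 64 to 1847 bases, 3.65% rose and 21.2% fell, and the median log2 fold change was −0.80. In the bin with the longest, 5004 to 109224 bases, 20.2% rose and 6.62% fell, and the median was 0.77. Across 11609 genes Spearman's rho between length and log2 fold change was 0.33, whereas it was −0.04 across 9924 genes in the separate 48 h experiment described further on. Genes are not independent replicates, so no p is given. Counts for the gene groups are therefore given also with this trend taken out of the fit, which left 1030 rises and 1311 falls among 11610 genes with a known length.

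HOX and TALE homeobox genes, the classical MLL targets, lay low after treatment. Of 21 listed genes 14 passed the filter on low counts, and of these 7 fell and none rose in edgeR's test, with a median log2 fold change of −2.19 against 0.03 over all genes tested. Members near 0 after treatment, among them HOXA5, HOXA6, HOXA7 and MEIS1, passed the filter through libraries in which they were high. The count and median are therefore a description of which genes these were. MEIS1, the TALE factor that partners HOXA9 (chromosome 2, 66433452 to 66573869), stood at 24.1, 23.0 and 30.2 CPM in DMSO and at 0.148, 0 and 2.73 CPM after VTP50469. The groups did not overlap, and its log2 fold change was −4.54 (SE 0.74, adjusted p = 0.000448). PBX3, another TALE partner of HOX proteins, went from 34.8, 40.2 and 35.3 to 4.74, 8.24 and 4.31 CPM (log2 fold change −2.71, SE 0.43, adjusted p = 0.000361). HOXA10 went from 22.7, 35.9 and 36.7 to 6.51, 15.3 and 13.4 CPM (−1.45, SE 0.40, adjusted p = 0.0129).

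HOXA9 was rare in these libraries, at 2.79, 1.24 and 5.79 CPM in DMSO and 0, 0 and 1.15 CPM after treatment. The groups did not overlap, but its log2 fold change of −2.87 (SE 1.17) did not pass in edgeR's test (adjusted p = 0.0737), although it did with the replicate block (adjusted p = 0.00628). HOXA7 had 739 counts in the DMSO libraries together and 3 in the treated ones, a ratio of 60 (95% exact interval 20.4 to 291, which covers counting error only). HOXA5 had 161 counts in DMSO and none after treatment, at least 13.1-fold lower against a floor of 3 counts over the group. HOXA13, at the far end of the cluster, showed a log2 fold change of 0.00 (SE 0.94, adjusted p = 1) and overlapping values of 2.15 to 5.20 and 2.59 to 5.89 CPM. MEIS2 lay higher in every treated library, at 8.10, 10.4 and 7.58 against 33.9, 34.2 and 14.7 CPM, without passing the test (adjusted p = 0.0523), though it did with the replicate block (adjusted p = 0.0036). Leaving out VTP50469 replicate 1 ended the calls of HOXA5, HOXA6, HOXA7, HOXA10 and HOXA11, with HOXA10 at −0.98 (adjusted p = 0.133). Leaving out DMSO replicate 2 also ended that of HOXA10, DMSO replicate 3 that of HOXA7, and any library but VTP50469 replicate 3 those of HOXA6 and HOXA11. With the length trend taken out 4 of the 14 genes fell, with a median of −1.80, and with library-size scaling 4 fell and 1 rose.

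Of 29 other genes known as MLL fusion targets, all of which passed the filter, 9 fell and 3 rose, and their median log2 fold change was −0.04. MEF2C, a MADS-box factor of myeloid progenitors, went from 237, 184 and 179 to 39.7, 17.7 and 15.1 CPM. Every treated library lay under every DMSO library, and the log2 fold change was −3.04 (SE 0.70, adjusted p = 0.00472). SOCS2, an inhibitor of cytokine signalling, went from 14.9, 21.7 and 21.5 to 2.07, 1.57 and 4.45 CPM (−2.79, SE 0.52, adjusted p = 0.00114). EMB, which encodes the membrane glycoprotein embigin, went from 179, 287 and 206 to 81.0, 82.9 and 65.1 CPM (−1.55, SE 0.35, adjusted p = 0.00424).

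Other targets that fell were MYC (−2.58), the chromatin organizer SATB1 (−1.55), REEP3 (−1.60), LAMP5 (−2.05), SUPT3H (−2.0) and FLT3 (−0.90). Those that rose were RUNX1, a core haematopoietic factor (1.83), ZFP36L2, an RNA-binding decay factor (1.59), and GNAQ (1.48). For each of these 9 genes no treated library crossed a DMSO library. JMJD1C, which shares its locus with REEP3, stood at 64.5, 55.9 and 52.8 CPM in DMSO and 169, 89.5 and 103 CPM after treatment, without a call (1.06, SE 0.57, adjusted p = 0.17), and with the replicate block it passed at 0.98 (adjusted p = 0.0351). CDK6, a cell cycle kinase (−0.02), MYB (0.16) and the adaptor LMO2 (−0.01) showed overlapping groups and were not called, and the signs of CDK6 and LMO2 turned under other scalings. With the length trend taken out 9 fell and 3 rose, with a median of −0.41, and with library-size scaling 5 fell and 3 rose, EMB, SATB1 and FLT3 being among those no longer called. FLT3 also lost its call without any library but DMSO replicate 1, with a log2 fold change of −0.68 without DMSO replicate 2 (adjusted p = 0.169), and SUPT3H without any of the 6, with −1.54 without VTP50469 replicate 1 (adjusted p = 0.186).

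**Figure D1:**
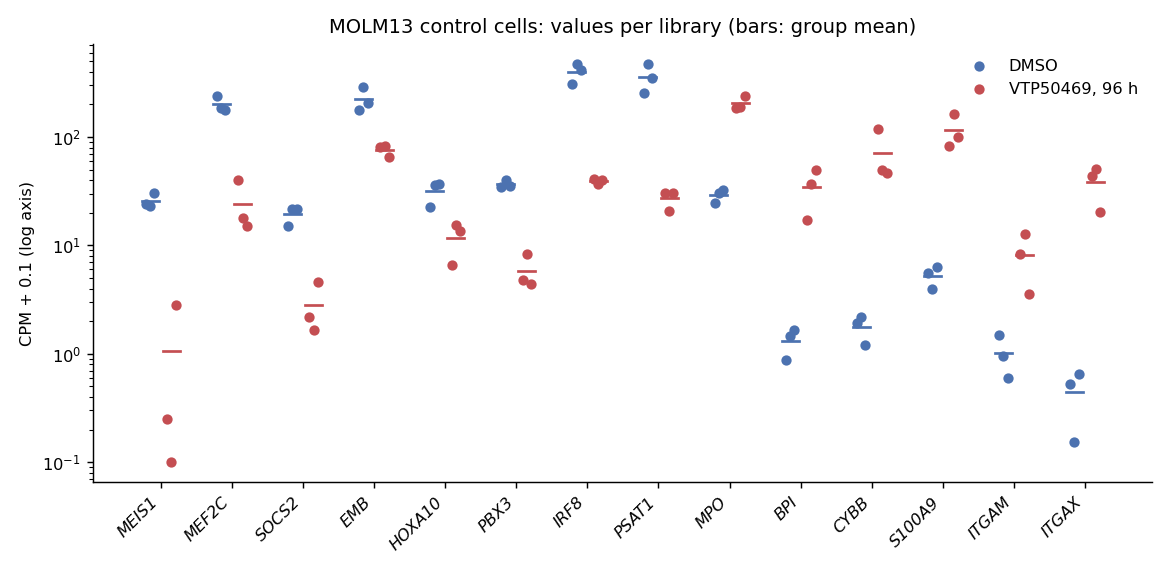
CPM (plus 0.1, log axis) of 14 genes in each of the 3 DMSO (blue) and 3 VTP50469 (red) libraries, with bars at the group means. MEIS1 to PSAT1 lie lower after treatment and MPO to ITGAX higher, and in none of the 14 genes do the groups overlap. The 14 genes were chosen for display, and separate groups were common among other tested genes too.

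Genes of the machinery itself showed no common direction. Of 17 tested genes of the Menin, MLL and DOT1L complexes, 4 rose and 2 fell, with a median of 0.34. MEN1, which encodes Menin, stood at 14.6, 15.1 and 8.73 against 11.2, 7.85 and 6.32 CPM, overlapping groups without a call (−0.59, SE 0.53, adjusted p = 0.416). KMT2A, which encodes MLL, went from 17.5, 12.5 and 13.7 to 145, 117 and 63.1 CPM, with groups far apart (2.89, SE 0.59, adjusted p = 0.00205). Its canonical transcript of 16600 bases lies in the bin of longest transcripts, and with the length trend taken out its log2 fold change was 1.80 (adjusted p = 0.0026). DOT1L, the H3K79 methyltransferase, rose from 17.8, 13.1 and 19.1 to 49, 50.7 and 30.9 CPM (1.38, SE 0.49, adjusted p = 0.0434), a call lost with the length trend taken out (0.79, adjusted p = 0.205).

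Also higher were CCNT1, the cyclin of the elongation kinase P-TEFb (2.07), and AFF4, a scaffold of the super elongation complex (1.31). The MLL core subunits ASH2L (−1.62) and DPY30 (−2.0) fell. With library-size scaling 6 of the 17 rose and none fell, so the falls were not called there, and with the length trend taken out 2 rose and 1 fell. DOT1L lost its call without any library but VTP50469 replicate 3 (1.32 without DMSO replicate 2, adjusted p = 0.134), AFF4 without any but VTP50469 replicate 2 (1.15 without DMSO replicate 3), ASH2L without VTP50469 replicate 1 or 2 or DMSO replicate 2 (−1.46 without VTP50469 replicate 1), and DPY30 without DMSO replicate 1 or any VTP50469 library (−1.23 without DMSO replicate 1). Among 22 Polycomb subunit genes 3 rose (EZH1, PCGF3 and JARID2) and 4 fell (EED, RNF2, RBBP7 and SKP1), beside 9.58% higher and 14.6% lower over all genes tested. The counts were 5 and 1 with library-size scaling, 3 and 2 with the length trend taken out, and 5 and 7 with the replicate block. Without 1 library at a time, the calls of EZH1 (all but VTP50469 replicate 3), EED (VTP50469 replicate 1, DMSO replicate 2), RNF2 (both replicates 2) and RBBP7 (VTP50469 replicate 1 or 2, DMSO replicate 2 or 3) were lost. Their log2 fold changes were 2.09, −1.23, −1.29 and −1.39 where the adjusted p was highest. BCOR, a subunit of the PRC1.1 Polycomb complex, stood at 15.2, 22.2 and 16.4 in DMSO and 15.3, 24.3 and 16.2 CPM after treatment, with fully overlapping values (0.05, SE 0.34, adjusted p = 0.933). PCGF1, another PRC1.1 subunit, stayed at or under 3.93 CPM in all 6 libraries and overlapped (adjusted p = 0.583).

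Several genes of neutrophil granules stood higher after treatment. Of 18 listed genes of secondary and tertiary granules 10 passed the filter and 9 of these were called higher. All of these 9 but SLPI had a DMSO mean under 2 CPM and passed the filter through libraries in which they were high, so the count is a description of which genes these were. The same holds for the members of the monocyte, S100, integrin and erythroid lists that lie near 0 in DMSO. CYBB, the membrane subunit of the NADPH oxidase, went from 1.84, 2.11 and 1.1 to 118, 49.5 and 46.6 CPM. The lowest treated library lay far above the highest DMSO library, and the log2 fold change was 5.40 (SE 0.72, adjusted p = 7.14e-05). CAMP, a cathelicidin antimicrobial peptide, went from 0.530, 0.270 and 0.15 to 8.14, 16.9 and 9.19 CPM (5.06, SE 0.67, adjusted p = 7.14e-05).

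LTF, the iron-binding granule protein lactoferrin, had 2 counts in DMSO and 144 after treatment, a ratio of 296 (95% exact interval 80.4 to 2465), and stood at 6.22, 16.5 and 8.62 CPM in the treated libraries (adjusted p = 5.82e-05). LCN2, the siderophore-binding lipocalin, had 1 and 46 counts, a ratio of 189 (32.3 to 7623). MMP9, a gelatinase of tertiary granules, went from 0.141, 0 and 0.549 to 3.26, 10.6 and 3.30 CPM (4.55, adjusted p = 0.00587). SLPI, a protease inhibitor, rose from 89.7, 18.4 and 40.0 to 266, 176 and 515 CPM (2.69, adjusted p = 0.0133), a call lost without DMSO replicate 2 (2.38, adjusted p = 0.0679) or 3. CHI3L1, a chitinase-like protein, was the one member not called, at 344, 494 and 453 against 370, 874 and 1541 CPM. Levels of these genes also varied between the other groups of the experiment. The middle LTF library stood at 8.62 CPM in control cells at 96 h, 0.56 CPM 48 h after withdrawal and 6.48 CPM 96 h after withdrawal, and in PCGF1/BCOR KO cells, described further on, at 1.19, 8.58 and 0.427 CPM. CAMP stood at 9.19, 4.55 and 29.5 CPM in these control groups and at 2.38, 18.6 and 1.14 CPM in the KO groups. In the KO groups LTF, CAMP, S100A8, S100A9 and the globin HBB all had their highest middle value 48 h after withdrawal, and the part of this shared pattern in the 96 h rises was not tested.

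Primary granule genes, made earlier in granulocyte development, did not move together. Of 10 tested members of 13 listed, 2 rose and 1 fell, and the median was −0.04. With the length trend taken out 3 rose and 1 fell. MPO, the myeloperoxidase, went from 24.7, 30.6 and 32.7 to 185, 191 and 238 CPM. The groups were separate with little spread, and the log2 fold change was 2.80 (SE 0.36, adjusted p = 6.03e-05). BPI, a bactericidal protein, went from 0.778, 1.35 and 1.55 to 17.2, 36.5 and 49.7 CPM (4.81, SE 0.61, adjusted p = 6.03e-05). CTSC, the protease that activates granule serine proteases, fell from 355, 515 and 314 to 55.2, 89.9 and 80.9 CPM (−2.39, SE 0.49, adjusted p = 0.00221). CTSG, cathepsin G, lay lower in every treated library, at 691, 662 and 935 against 79.6, 226 and 578 CPM, without a call (−1.37, adjusted p = 0.246), and passed with the replicate block (−1.92, adjusted p = 0.00431).

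Of 9 tested S100 genes, which encode calcium-binding proteins, S100A8, S100A9 and S100A12 rose. S100A9, a subunit of calprotectin, went from 5.44, 3.83 and 6.23 to 83.3, 162 and 100 CPM, and no library crossed (4.47, SE 0.44, adjusted p = 5.9e-06). Its partner S100A8 went from 4.10, 2.81 and 4.69 to 99.0, 186 and 101 CPM (5.05, SE 0.61, adjusted p = 4.45e-05), and S100A12 from 0.177, 0.0540 and 0.249 to 10.8, 29.1 and 11.6 CPM (6.62, SE 0.89). The others were not called, among them S100A4 (1.11, adjusted p = 0.281) and S100A11 (−0.95, adjusted p = 0.396), and with the length trend taken out 5 rose. Of 16 tested monocyte and macrophage markers of 29 listed, 6 rose and 2 fell, and 7 rose and 1 fell with the length trend taken out. CSF1R, the receptor for macrophage colony-stimulating factor, rose from 1.31, 1.24 and 1.25 to 7.70, 13.7 and 11.2 CPM (3.08, adjusted p = 0.00417), and FCN1, a lectin of blood monocytes, had a log2 fold change of 3.68. The list shares its 3 S100 genes with the S100 list, and the Fc receptor FCGR1A was its sixth rise, a call lost without any 1 of the 6 libraries (0.89 without DMSO replicate 1, adjusted p = 0.139).

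The monocyte co-receptor CD14 stayed under 1 CPM in all 6 libraries (−1.06, adjusted p = 0.673, with a sign that turned in other fits). The MS4A family members MS4A6A (−2.96) and MS4A7 (−1.47) fell, MS4A6A from 330, 404 and 228 to 31.1, 47.1 and 45.5 CPM. The call of MS4A7 was lost without any 1 of the 6 libraries (−1.16 without VTP50469 replicate 1, adjusted p = 0.185). LYZ, lysozyme, stood at 505, 1059 and 634 against 1705, 2829 and 2997 CPM, separate groups without a call (1.78, adjusted p = 0.063) that passed with the replicate block (adjusted p = 0.00278). In bulk RNA, a change in the number of cells of one kind and a change in RNA per cell cannot be told apart.

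Of 15 tested leukocyte integrins and partners 6 rose and none fell. ITGAX, the CD11c integrin of monocytes and dendritic cells, went from 0.424, 0.0540 and 0.549 to 43.4, 50.7 and 20.3 CPM. It was the largest rise by the naming rule, at 6.73 (SE 1.06, adjusted p = 0.000328), and the lowest treated value was far above every DMSO value. ITGAM, the CD11b integrin used as a mark of myeloid differentiation, went from 1.38, 0.864 and 0.499 to 8.29, 12.6 and 3.45 CPM (3.11, SE 0.79, adjusted p = 0.00848). PECAM1 (1.76), ITGAV (1.70) and ITGA5 (1.37) rose as well. The call of ITGA5 was lost without DMSO replicate 1 or 3 (1.25 without the latter), and that of ITGAV without any 1 of the 6 libraries (1.43 without DMSO replicate 3, adjusted p = 0.143). With library-size scaling 9 rose and none fell, and with the length trend taken out 7 rose and ITGA4 fell.

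CSF3R, the receptor for granulocyte colony-stimulating factor, went from 36.5, 36.3 and 39.5 to 183, 201 and 205 CPM (2.39, SE 0.34, adjusted p = 0.000128). TLR4, the endotoxin receptor, went from 2.23, 2.59 and 2.0 to 45.6, 19.2 and 14.2 CPM (3.54, adjusted p = 0.00031), and the scavenger receptor CD36 had a log2 fold change of 2.34. Among 19 tested chemokines, cytokines and receptors 4 rose and none fell, beside 7 and none with the length trend taken out, and 6 higher and 1 lower with the replicate block. The other 2 that rose were CXCL16 and TLR2, both losing their calls in 5 of the 6 fits without a library, all but that without VTP50469 replicate 2 and VTP50469 replicate 3 respectively (2.91 and 1.11 where the adjusted p was highest). Among 12 tested surface antigens of leukaemia 3 rose and 3 fell: CLEC12A (2.08), ADGRE5 (1.70) and ADGRE2 (1.35) against CD33 (−1.83), CD47 (−1.52) and CD9, which had 85 and 2 counts. CD47 lost its call without any 1 of the 6 libraries, CD9 without VTP50469 replicate 1 or 2 or DMSO replicate 2 or 3, and CD33 without VTP50469 replicate 1 (−1.31, adjusted p = 0.105) or DMSO replicate 2. With library-size scaling 4 rose and none fell, and with the length trend taken out 2 rose and 3 fell. Over all genes tested 9.58% were called higher and 14.6% lower in the main fit.

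**Figure D2:**
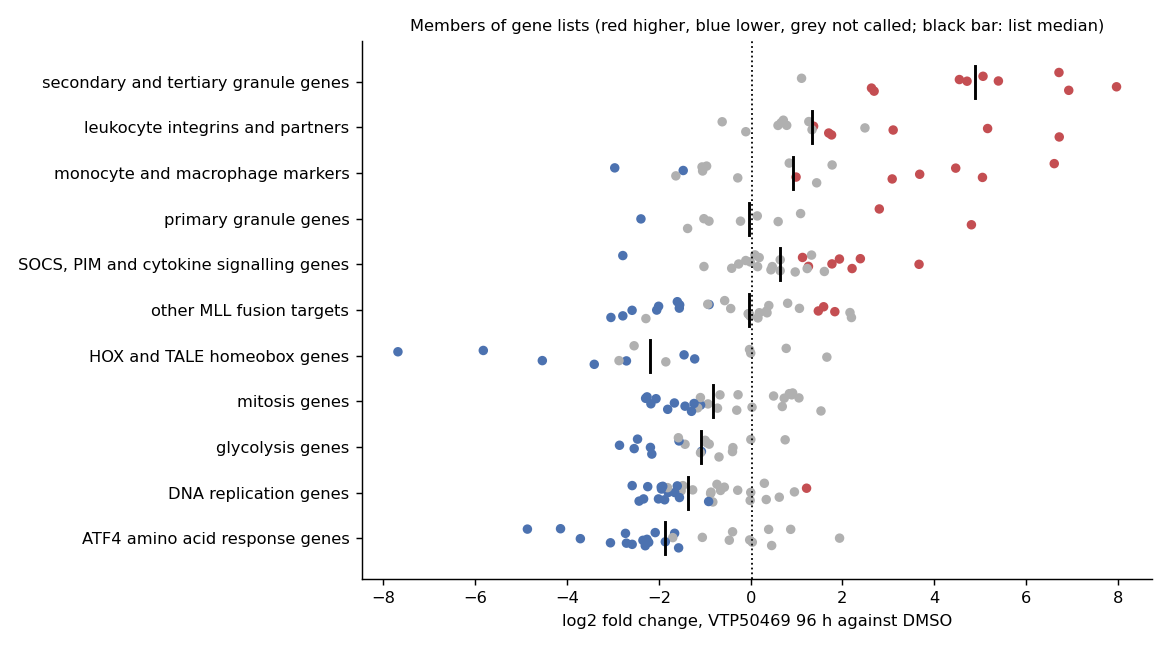
Log2 fold change at 96 h of every tested member of 11 gene lists, 1 point per gene, red where higher and blue where lower in edgeR's test, grey where not called, with a black bar at the list median. Members of most lists lie on both sides of 0, those of the HOX and TALE list mostly under it (median −2.19). Genes near 0 in DMSO or after treatment are shown only where they passed the filter.

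Of 26 tested transcription factors of myeloid fate, 2 rose and 3 fell, beside 9.58% higher and 14.6% lower over all genes tested. The counts were 5 and 3 with the length trend taken out and 4 and 5 with the replicate block. IRF8, which directs monocyte and dendritic cell fate (chromosome 16, 85899116 to 85922606), went from 309, 473 and 417 to 41.1, 36.9 and 39.8 CPM. The treated libraries lay close together and far under DMSO, and the log2 fold change was −3.35 (SE 0.40, adjusted p = 4.45e-05). BATF3, a factor of cross-presenting dendritic cells, went from 57.4, 48.5 and 61 to 0.888, 1.57 and 2.15 CPM (−5.17, SE 0.80, adjusted p = 0.000328). ATF3, a stress-induced factor, went from 7.39, 10.5 and 8.38 to 0.740, 0 and 0 CPM (−4.86, adjusted p = 0.00237).

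CEBPD rose from 84.1, 80.0 and 94.7 to 166, 183 and 289 CPM (1.30, adjusted p = 0.0457), and JUN rose with a log2 fold change of 1.89. CEBPD lost its call without any library but VTP50469 replicate 1 (1.01 without VTP50469 replicate 3, adjusted p = 0.139), and JUN without any but VTP50469 replicate 2 (1.40 without VTP50469 replicate 3). CEBPE, the factor of late granulocyte maturation, stood at 3.50, 5.40 and 12.7 against 7.99, 14.9 and 45.8 CPM. These groups overlap, but each treated library exceeded the DMSO library of the same number, and CEBPE passed with the replicate block (1.68, adjusted p = 0.112, blocked adjusted p = 0.00156). CEBPA (0.95, adjusted p = 0.148) and SPI1 (0.54, adjusted p = 0.651), both drivers of myeloid identity, were not called. Among stem and progenitor markers, of which 9 of 22 passed the filter, ANGPT1, CD38, FLT3 and MEIS1 fell and GATA2 rose. CD38 lost its call without any library but DMSO replicate 1 (−0.85 without DMSO replicate 2), GATA2 without any but VTP50469 replicate 3 (1.15 without VTP50469 replicate 1), and ANGPT1 without VTP50469 replicate 1 or 2.

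Genes of cell division that were called mostly fell, beside 1221 genes higher and 1858 lower over all genes tested. All 32 replication genes passed the filter, and 14 fell and 1 rose, with a median of −1.37. MCM6, a subunit of the replicative helicase, went from 125, 204 and 175 to 33.8, 31.8 and 34.5 CPM (−2.33, SE 0.49, adjusted p = 0.00268), and the groups did not overlap. RFC5, a subunit of the clamp loader, went from 80.4, 148 and 95.6 to 20.3, 22.8 and 25.4 CPM (−2.24, adjusted p = 0.00058). POLE, the catalytic subunit of polymerase epsilon, rose from 25.6, 20.2 and 22.6 to 50.8, 62.4 and 46.4 CPM (1.22, adjusted p = 0.0319), a call lost without any library but VTP50469 replicate 3 and with the length trend taken out (0.64).

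Of 26 mitosis genes 10 fell and none rose, and with the replicate block 14 fell and 4 rose. CDK1, the mitotic kinase, went from 126, 220 and 129 to 29.9, 31.0 and 38.4 CPM (−2.26, SE 0.43, adjusted p = 0.00125), and CDC20, an activator of the anaphase-promoting complex, from 391, 633 and 843 to 87.6, 112 and 183 CPM (−2.29, adjusted p = 0.00351). MKI67, a proliferation antigen with a long transcript, stood at 168, 151 and 175 against 390, 236 and 260 CPM (0.84, adjusted p = 0.108), and was called higher with the replicate block (0.80, adjusted p = 0.0279), as was the kinesin CENPE (1.33, adjusted p = 0.00612). With library-size scaling, which raises all genes, 6 mitosis genes were called higher and 4 lower, with a median of −0.32 against −0.83 on the TMM scale, and 10 replication genes fell against 2 higher. With the length trend taken out 7 replication genes and 8 mitosis genes fell and none rose.

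The cyclins and inhibitors of the cell cycle gave 4 falls among 17 tested, beside 14.6% lower over all genes tested. With the length trend taken out they gave 4 falls and 1 rise. CDKN2C, the CDK4/6 inhibitor p18, went from 173, 176 and 116 to 5.48, 28.7 and 18.5 CPM (−3.16, SE 0.50, adjusted p = 0.000343). CCNB1, cyclin B1, went from 682, 1206 and 898 to 41.3, 92.7 and 151 CPM (−3.29, adjusted p = 0.0101), a call lost without VTP50469 replicate 1 (−2.76, adjusted p = 0.0708). CCNA2 (−1.84) and CCND2 (−1.70) fell, the latter not without VTP50469 replicate 1 or 2 or DMSO replicate 2 or 3 (−1.48 without VTP50469 replicate 1, adjusted p = 0.134).

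Of all lists of 20 or more tested genes, that of the ATF4 amino acid response had the lowest median, −1.86, with 15 falls and no rise among 25 tested of 30 listed. PSAT1, the aminotransferase of serine synthesis (chromosome 9, 78297125 to 78330093), went from 254, 470 and 352 to 30.6, 20.8 and 30.5 CPM. The treated values were nearly level and far under DMSO (−3.71, SE 0.42, adjusted p = 2.91e-05). PSPH, the last enzyme of that route, went from 132, 201 and 175 to 28.7, 23.6 and 24.3 CPM (−2.73, SE 0.36, adjusted p = 7.14e-05). MTHFD2, the mitochondrial folate enzyme, went from 257, 485 and 309 to 64.0, 25.9 and 36.4 CPM (−3.05, SE 0.42, adjusted p = 0.000108).

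CTH, which makes cysteine from cystathionine (−4.14), the pseudokinase TRIB3 (−2.08) and the amino acid transporters SLC7A5 (−1.86), SLC3A2 (−2.26) and SLC1A5 (−1.66) fell too. SLC3A2 was not called without VTP50469 replicate 1 (−1.74, adjusted p = 0.0875), and SLC1A5 not without DMSO replicate 1 or 2 or VTP50469 replicate 1 or 3 (−1.46 without VTP50469 replicate 1). ATF4 itself stood at 345, 377 and 359 against 430, 327 and 352 CPM, overlapping groups with a log2 fold change of 0.04 (SE 0.37, adjusted p = 0.952). DDIT3, a target of ATF4 in stress, was not called (0.39, adjusted p = 0.525). With the length trend taken out 13 fell and 1 rose, and with library-size scaling 11 fell and 2 rose.

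Of 18 tested glycolysis genes 7 fell and none rose, with a median of −1.08. ENO1, an enolase, went from 4428, 6164 and 5186 to 734, 673 and 1312 CPM (−2.54, SE 0.57, adjusted p = 0.00381), and PGK1, the phosphoglycerate kinase, from 966, 1651 and 1248 to 246, 216 and 389 CPM (−2.18, adjusted p = 0.00432). The call of GAPDH (−1.56) was lost without any library but DMSO replicate 3, that of PFKP without any 1 of the 6, and that of PGAM1 without VTP50469 replicate 1 or 2 or DMSO replicate 2 or 3. With the length trend taken out 4 fell, and with library-size scaling 4 fell and 1 rose. The 15 listed mitochondrially encoded genes, which leave out tRNAs such as TRNV named further on, all had a higher mean after treatment, with a median of 1.35, but CYTB alone was called, not without any library but VTP50469 replicate 3, and 11 were called with the replicate block. Among 70 tested cytosolic ribosomal protein genes 1 fell (13 with the replicate block, with 1 higher), and their median of −0.66 was −0.09 with library-size scaling and 0.03 with the length trend taken out.

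The naming rule took the 15 genes with the largest rise and the 15 with the largest fall from 907 and 1762 that met it, asking for a call with and without the replicate block, separate groups and at least 10 CPM in the higher group. Besides genes described above, the rises included MLXIPL, the carbohydrate-response factor ChREBP (0.212, 0.216 and 0 to 9.62, 13.4 and 8.62 CPM, log2 fold change 6.06), CYP4F3, which inactivates leukotriene B4 (6.52), and RETN, the monocyte-derived resistin (5.68). MEGF6 went from 1.87, 1.19 and 1.15 to 53.7, 73.4 and 72.4 CPM (5.55, SE 0.60, adjusted p = 2.15e-05), with treated values close together. SLCO4C1, an organic anion transporter, rose by 5.44. The mitochondrial tRNA TRNV (5.78) rested on VTP50469 replicate 1, with 138 CPM there against 5.50 and 8.05 CPM, and was not called without it (3.02, adjusted p = 0.273) or without DMSO replicate 2 or 3. Pseudogene HSP90AB4P, the antisense RNA GK-AS1 and the uncharacterized LOC107984747 and LOC105371934 completed the rises, and reads of a pseudogene or antisense RNA may belong to the related gene. HSP90AB4P lost its call without any library but VTP50469 replicate 3, and GK-AS1 without any but VTP50469 replicates 2 and 3.

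ZNF521, a zinc finger factor of haematopoietic progenitors, led the falls, from 50.5, 73.4 and 60 to 0.592, 0.393 and 2.01 CPM (−5.80, SE 0.79, adjusted p = 9.12e-05). NQO1, the quinone reductase, went from 124, 187 and 143 to 5.33, 8.25 and 12.9 CPM (−4.09, SE 0.69, adjusted p = 0.00058). CRYZ, another quinone reductase (−4.56), the aldose reductase AKR1B1 (−3.89) and the iron-binding nuclear protein PIR, with 1100 counts in DMSO and 1 after treatment (ratio 268, interval 48.0 to 10588), fell with it. The mitochondrial ADP/ATP carrier SLC25A4 (−4.37), the mitochondrial transcription factor TFB2M (−3.91), the sulfotransferase CHST4 (−4.59), HSD11B1 (−4.41), MS4A4A (−4.28) and IGLL5 (−4.12) were further falls.

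Antisense and host RNAs of the fusion targets were among them: CDK6-AS1 (−4.31), while CDK6 was not called, and JMJD1C-AS1, with 745 and 3 counts (ratio 60.5, interval 20.6 to 294), while JMJD1C was not called. With the length trend taken out CDK6 stood at −0.95 (adjusted p = 0.0549) and JMJD1C at 0.35 (adjusted p = 0.575). Whether the counting used strand is not given in the sources used here. Of the genes at 3 or fewer counts in one group, EFNA5, an ephrin, had 697 and 3 counts (ratio 56.6, interval 19.3 to 275), and PLEKHG1 1 and 173 (ratio 711, interval 126 to 28225). The calls of EFNA5 and of HSD11B1 were lost without VTP50469 replicate 1 or DMSO replicate 2, and that of HSD11B1 also without VTP50469 replicate 2.

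Globin genes, the oxygen carriers of red cells, rose as well. HBB went from 1.13, 1.30 and 1.65 to 47.5, 93.1 and 52.3 CPM, with no overlap (5.55, SE 0.66, adjusted p = 4.45e-05). HBA2 (5.17) and HBA1 (5.05) rose, and 5 of 9 tested erythroid markers rose in all, HBG2 not without any library but VTP50469 replicate 3. Both with the replicate block and with the length trend taken out, 5 erythroid markers rose and 1 fell. The summed level of the erythroid list was 121 to 149 CPM in DMSO and 180 to 242 CPM after treatment. The defining erythroid genes were at or near 0: ALAS2, the heme enzyme of red cell precursors, had no count in any of the 6 libraries, KLF1 1 and 0, GATA1 3 and 5, AHSP 0 and 7 and SLC4A1 0 and 4 in the DMSO and treated libraries together. Of 10 megakaryocyte and platelet markers none passed the filter, and PF4 had no count and PPBP 0 and 3. Of 14 lymphoid markers 7 passed and none was called, at summed levels of 18.4 to 48.9 CPM in DMSO and 48.0 to 58.1 CPM after treatment.

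The 48 h response of MOLM13 control cells to 500 nM VTP50469 in a separate knockout experiment gave values to set beside these, from other libraries and another table. Its 3 treated libraries are labelled 48 h and its 3 DMSO libraries 72 h, with 5127116 to 6027321 counts each. In it 2000 of 12140 genes were called (16.5%), 994 higher and 1006 lower. Of 9968 genes tested in both, 2707 were called at 96 h, and 1946 of these (71.9%) had the same sign at 48 h, against 53.4% of genes not called at 96 h. At 48 h 630 were called in the same direction, which is 23.3% of the 96 h calls and 35.6% of the 48 h calls, and 47 were called in opposite directions. Across genes Pearson's r was 0.33 and Spearman's rho 0.28, a description over genes that are not independent.

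MEIS1 stood at 23.2, 24.5 and 19.1 CPM in DMSO and 0.579, 0.540 and 1.58 CPM at 48 h (−4.57), close to the −4.54 at 96 h. MEF2C (−3.13 at 48 h, −3.04 at 96 h), SOCS2 (−2.90 and −2.79) and EMB (−1.14 and −1.55) were likewise called at both times. MPO (2.29 and 2.80), BPI (3.46 and 4.81) and CYBB (3.14 and 5.40) rose at both. ITGAX rose from 7.44, 8.02 and 7.84 to 16.2, 18 and 23.5 CPM at 48 h (1.31), against 6.73 at 96 h, from a DMSO level under 1 CPM in the 96 h experiment. No test was run between the tables.

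Other genes had unlike calls or unlike sizes of fold change in the 2 experiments. JMJD1C fell at 48 h, from 54.4, 83.8 and 47.9 to 23.7, 24.3 and 21.0 CPM (−1.43, adjusted p = 2.96e-06), and was not called at 96 h. HOXA9, rare in the 96 h libraries, was well covered at 48 h and called lower there (−0.77, adjusted p = 6.36e-06). Its means were 92.2 CPM in DMSO and 54 CPM after VTP50469 at 48 h, against 3.27 and 0.383 CPM in the 96 h experiment. CDK6, not called at 96 h, was called lower at 48 h (−1.25, adjusted p = 1.09e-10), as was CDK6-AS1 (−3.58). KMT2A had a log2 fold change of −0.09 at 48 h (adjusted p = 0.794). NQO1 (−0.05), CTH (−0.25) and PIR (−0.32) were not called at 48 h. IRF8 was called lower at both times, with −0.83 at 48 h. Of 31 replication genes tested at 48 h 4 fell, CDK1 standing at 99.8, 127 and 101 against 94.2, 106 and 103 CPM, and of 23 ATF4 response genes 12 fell and 2 rose. Among 33 lysosome genes 20 rose at 48 h and none fell, while at 96 h 4 of 36 rose and 3 fell. HBB, HBA1 and HBA2 had no count in any of the 27 libraries of the 48 h table. LTF had 1 count over all 27, with 0 in control DMSO and 0 in control VTP50469. S100A9 had 1 count in control DMSO and 48 after VTP50469 there, and CAMP 1 and 24. Whether library preparation or the counting differed between the tables is not given in the sources used here.

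**Figure D3:**
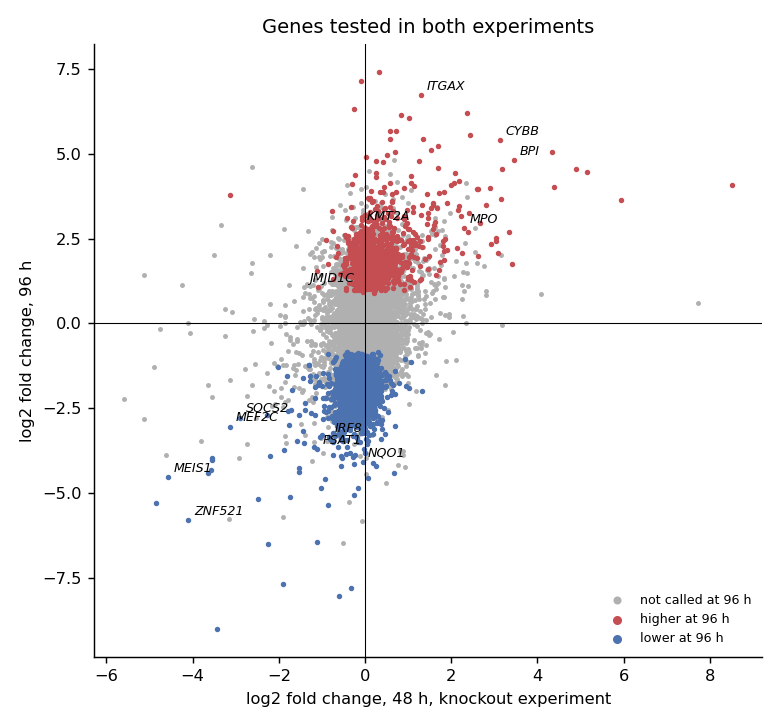
Log2 fold change of each of the 9968 genes tested in both experiments, at 48 h in the knockout experiment (x axis) against 96 h (y axis). Red and blue mark genes higher and lower at 96 h and grey those not called. MEIS1, MEF2C and SOCS2 lie low on both axes and CYBB and BPI high on both, while JMJD1C lies on opposite sides.

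The response of control cells was also set against that of PCGF1/BCOR KO cells in the same experiment, in which the PRC1.1 genes PCGF1 and BCOR were targeted and had 3 DMSO libraries of their own. The difference of the 96 h responses passed in 7 of 12741 genes (0.0549%) by edgeR's test of the interaction, and in 424 at an unadjusted p under 0.05. Treated KO replicate 2 held only 491592 counts, 34.6% of them mitochondrial, and 3 counts there equal 4.75 CPM. Without it 11 genes passed. The test thus had little power, and a gene that did not pass is not shown to respond alike in both genotypes. The response of HBB, HBA1, HBA2, S100A9, S100A12 and DNASE2 was lower in KO than in control cells and that of UBB higher. HBB stood at 37.6, 38.6 and 47.6 CPM in KO DMSO and 2.27, 15.9 and 3.87 CPM after treatment of KO cells, the reverse of the order in control cells. S100A9 stood at 12.6, 6.52 and 10.5 against 7.93, 11.1 and 10.7 CPM in KO cells, with overlapping groups. The difference for S100A12 was lost in 11 of the 12 fits that left out a library, and that for DNASE2 in 6.

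DNASE2, a lysosomal nuclease, rose in control cells from 4.88, 4.81 and 5.09 to 12, 11.4 and 12.8 CPM, and stood at 83.6, 104 and 89.3 against 57.5, 33.3 and 38.7 CPM in KO cells. UBB, a polyubiquitin gene, fell in control cells from 55.8, 51.4 and 46.9 to 3.41, 14.9 and 15.4 CPM, and stood at 1.02, 1.31 and 1.24 against 4.91, 19.0 and 11.6 CPM in KO cells. MEIS1 did not pass this test (difference 1.66, SE 0.97, adjusted p = 1.0), with KO values of 24.1, 22.1 and 25.9 against 3.53, 6.34 and 1.49 CPM. Neither did MPO (−1.02, SE 0.47), at 139, 175 and 221 against 577, 498 and 772 CPM in KO cells. Globin levels varied between groups in no fixed order with treatment: the middle HBB library stood at 178 CPM in KO cells 48 h after withdrawal and at 6.41 CPM 96 h after withdrawal. Of 155 genes that differed between the genotypes in DMSO, 149 kept their sign between the genotypes after 96 h of treatment.

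**Figure D4:**
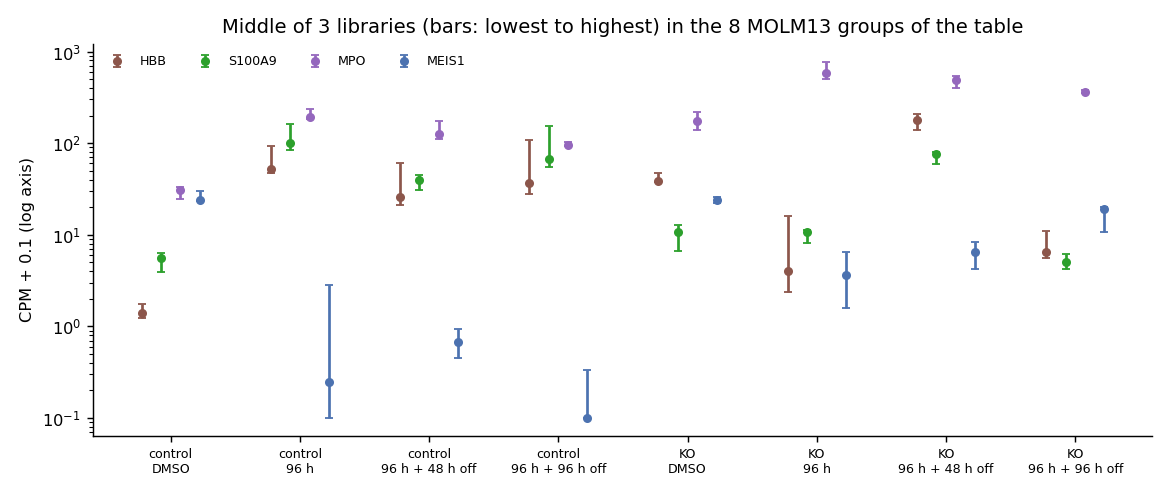
CPM (plus 0.1, log axis) of HBB, S100A9, MPO and MEIS1 in the 8 MOLM13 groups of the experiment, as the middle of 3 libraries with bars from the lowest to the highest; off means after withdrawal of VTP50469. HBB is low in control DMSO and high after 96 h, and the reverse in KO cells, whereas MEIS1 lies lower and MPO higher after 96 h in both.

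Upstream windows of 250 bases could be read for 11609 of the genes tested. Their median CpG count was 18, against 17 for genes that rose and 18 for genes that fell, and windows with under 5 CpG, such as that of MPO shown above, made up 14.2% of all, 18.7% of those of raised genes and 10% of those of lowered genes. The E-box letters CACGTG, searched on both strands, occurred in 7.95% of all windows, 6.92% of those of raised genes and 8.52% of those of lowered genes. The C/EBP-like letters TTGCNNAA occurred in 7.22%, 7.10% and 8.19%, the PU.1-like letters GAGGAAGT in 2.21%, 2.58% and 1.86%, and TGATGNAA, found in ATF4 response elements, in 1.90%, 2.68% and 1.64%. These are descriptions of letters in windows, and the raised genes also had longer transcripts, with a median of 5254 against 2309 bases for lowered genes.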

How the data were processed

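MOLM13 control cells given DMSO or 500 nM VTP50469 for 96 h were compared, with 3 libraries in each group as named in the labels. The deposited values are raw counts per gene, which the authors made from 3′ RNA-seq reads with bbmap trimming and STAR on GRCh38 per their methods. The labels name 2 library preparations without saying which sample had which. The strand setting of the counting is not given in the sources used here. Rows without a gene name held at most 0.000815% of counts (36.8% to 48.6% in the 48 h table) and stayed out of library sizes. The 8 columns of the washout table that matched no sample were not used.

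Genes that reached 2 CPM in 2 or more libraries were tested (12741 of 44429), with edgeR 4.0.16 (limma 3.58.1, R 4.3.3), TMM scaling, the quasi-likelihood test and Benjamini-Hochberg adjustment at 0.05, on all 24 MOLM13 libraries of the experiment, which share one estimate of the spread. Standard errors are the fold change over the square root of F. The 48 h table (27 libraries) was fitted apart. The script was tested on simulated counts. Totals ran from 491592 to 47065530 counts, and ratios and floors (3 counts over the group) cover counting error only.

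Same-numbered replicates deviated together from their group means, with correlations of 0.269, 0.251 and 0.227 against −0.212 to −0.0336 for other pairs. The main fit had no pairing. A fit with the replicate block, which takes same-numbered libraries as pairs, was made as an alternative and called 5133 genes against 3079. The labels do not say what a number shares. Replicates differed by more than sampling noise, with a chi-square per degree of freedom of 57.6 or more.

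Largest changes were named by rule: called with and without the block, groups apart, at least 10 CPM in the higher group, the 15 largest each way, and genes at 3 or fewer counts in one group apart. Members and gene lists were chosen with earlier results of these data known. Alternatives were library-size scaling, other filters, only the 6 libraries, the block, thinned DMSO libraries, no mitochondrial genes, DESeq2 1.42.0, each library left out and, chosen after seeing the data, removal of the trend with transcript length. Figures were drawn with matplotlib 3.10.9. Some members of the lists are counted but not reported by name here.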

Additional observations from a re-analysis of the deposited data

Results flagged for a closer look

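The 7 genes that follow differed in their 96 h response between PCGF1/BCOR KO and control cells by edgeR's interaction test, given as the KO minus the control log2 fold change. HBB differed by −8.47 (SE 0.91, adjusted p = 3.2e-05), HBA2 by −7.30 (SE 0.91, adjusted p = 0.000255) and HBA1 by −6.52 (SE 0.88, adjusted p = 0.000479). In all 3 control DMSO libraries HBB lay under every KO DMSO library, and after treatment above every KO library.

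S100A9 differed by −4.50 (SE 0.58, adjusted p = 0.000276) and S100A12 by −6.73 (SE 1.28, adjusted p = 0.046). S100A8, the partner of S100A9, was at −3.23 without passing (adjusted p = 0.374), and LTF at −6.03 (adjusted p = 0.0633). UBB differed by 5.38 (SE 0.75, adjusted p = 0.000633) and DNASE2 by −2.37 (SE 0.41, adjusted p = 0.0147). Both already differed between the genotypes in DMSO, UBB at 46.9 to 55.8 CPM in control against 1.02 to 1.31 CPM in KO cells, and DNASE2 at 4.81 to 5.09 against 83.6 to 104 CPM.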

How the results depend on the processing

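The count of 3079 called genes moved with single libraries and with the replicate block. A fit with fewer libraries can lose calls whatever the library left out holds. Leaving out 1 library gave 1337 to 2812 calls, with 535 to 1174 higher and 643 to 1638 lower, the lowest totals without VTP50469 replicate 1 (1337) and DMSO replicate 2 (1359). With the replicate block, that is with same-numbered libraries as pairs, 5133 genes were called, 2075 higher and 3058 lower, and with the block in only the 6 libraries 5557, 2347 higher and 3210 lower. Without the block, only the 6 libraries gave 2029 higher, library-size scaling 2318 higher and 820 lower, DESeq2 2282 higher, thinned DMSO libraries 1019 lower and the limits of the study (a false discovery rate of 0.1 and a log2 fold change of 0.5) 1913 higher. Every one of the 1221 rises was also called with library-size scaling, but 44.1% of the falls. With the trend with transcript length taken out, chosen after seeing the data, 68.2% of rises and 62% of falls among genes with a length kept their call. The interaction count of 7 was 12 without the filter on low counts, 2 with the length trend taken out and 5 to 11 without 1 library. The 48 h count of 2000 was 693 with only the 6 libraries.

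Of 181 named genes 159 were called. Among these, 88 kept direction and call under each alternative in which they were tested (genes that failed the 10-count filter, had no length or were mitochondrial could not be fitted in those), 71 lost the call under at least 1, 17 of them only when 1 library was left out, and none turned. Signs turned for genes that were not called. HOXA13 was at −0.0043 with only the 6 libraries, −0.028 with the replicate block, −0.24 without the length trend and −0.31 to 0.27 without 1 library. Without the length trend CDK6 kept its sign, at −0.95 (adjusted p = 0.0549). It was at 0.55 with library-size scaling, 0.011 with no filter, 0.087 with at least 10 counts, 0.085 without mitochondrial genes, 0.28 with thinned DMSO, 0.24 with DESeq2, and −0.31 to 0.26 without 1 library. LMO2 was at 0.52, 0.026, 0.090, 0.084, 0.33 and 0.25 in the same order of settings, 0.75 without the length trend (adjusted p = 0.0436), and −0.16 to 0.25 without 1 library. BCOR was at −0.44 without the length trend and −0.087 to 0.34 without 1 library, PCGF1 at −0.83 to 2.15 and SPI1 at −0.10 to 1.13 without 1 library, CD14 at 0.65 with thinned DMSO and 0.11 without the length trend, and MKI67 at −0.080 without the length trend.

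Depth limits the low genes: the floor of 3 counts over a group is 0.0449 CPM in DMSO and 0.184 CPM after VTP50469. Library depth and the mitochondrial share separate the same libraries as the treatment, so their part in any result cannot be told apart from it. The cause of the changes with processing was not tested.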

Other observations

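Signalling genes downstream of cytokine receptors gave 7 rises and 1 fall among 24 tested. SOCS3, a feedback inhibitor (3.67), the kinases JAK2 (2.21), PIM1 (1.94) and TYK2 (1.77), STAT5B (1.26) and CISH (1.13) rose with CSF3R, while SOCS2 fell. STAT5B lost its call without any library but VTP50469 replicate 3, and CISH without VTP50469 replicate 2 or any DMSO library. Of 19 tested interferon response genes 2 rose, IFI6 (4.44) and STAT2 (2.54), and none fell, beside 9.58% of all genes tested called higher. Among 15 tested BCL2 family genes the killer BMF rose (2.04) and PMAIP1 fell (−1.50), the latter not without DMSO replicate 2 or any VTP50469 library, and with the replicate block 1 rose and 5 fell.

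Lysosome genes did not move together at 96 h, with 4 rises (CTSD 2.03, MCOLN1 1.95, MAN2B1 1.77 and TPP1 1.62) and 3 falls among 36, against 8 rises and no fall with library-size scaling and 6 rises and 11 falls with the replicate block. CTSL, GUSB and SCARB2 made up the falls, and each lost its call in at least 4 of the 6 fits that left out a library. Among 22 cholesterol genes 3 rose and 2 fell. Both lists stand beside 9.58% called higher and 14.6% called lower over all genes tested. The regulator SREBF1 rose from 22.8, 19.0 and 23.2 to 94.0, 164 and 172 CPM (2.73, adjusted p = 0.000631) and HMGCS1 also rose (1.32), while NSDHL (−2.28) and PMVK (−2.45) fell.

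MHC class II genes gave no call among 4 tested by edgeR, though CD74 was called lower with the replicate block (−1.40, adjusted p = 0.00518). Of 2 tested MHC class I genes NLRC5, their transactivator, rose, though not in 4 of the 6 fits that left out a library. The other, B2M, lay lower in every treated library without a call (−1.07, adjusted p = 0.401). With the replicate block B2M was called lower (−1.73, adjusted p = 0.0334).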
